A study of Mus musculus with 8 samples.

Results

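The 36 genes described here serve the unfolded protein response and the ATF4 pathway. They were taken from a list of names, and each was read from the probe set annotated to it alone with the highest mean over all 8 arrays. All 36 had such a probe set, and all lay above the floor on dim signals, 6.05 on the log2 scale, so they are 36 of the 9511 genes tested. By role they fall into 4 genes for the stress sensors and XBP1, 16 genes of the chaperone branch and 16 genes of the ATF4 and amino acid branch.

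The endoplasmic reticulum (ER) folds secreted and membrane proteins. When unfolded proteins collect there, the membrane sensors ATF6, IRE1 (gene Ern1) and PERK (gene Eif2ak3) signal to the nucleus. ATF6 is cut to release a transcription factor, and IRE1 splices Xbp1 mRNA so that it encodes an active one. Both raise ER chaperones and degradation factors. PERK phosphorylates the translation factor eIF2 alpha, which lowers protein synthesis but favours translation of ATF4. ATF4 raises genes for amino acid synthesis and uptake, also when other eIF2 kinases sense a shortage of amino acids. Fibroblasts secrete much collagen and depend on this folding machinery.

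The cells were primary mouse embryonic fibroblasts (MEFs), cultured straight from embryos, and their RNA was read on Affymetrix 3' arrays. Of the 8 arrays, 4 came from Cry DKO lines, of genotype Cry1-/- and Cry2-/-, which lack both cryptochrome repressors of the circadian clock, and 4 from wild-type (WT) lines. Each array was an independent line; all had a near-C57BL/6J background reached by more than 7 backcrosses, and all proliferated unsynchronised at 3% oxygen in medium with 10% serum. Embryo age and sex are not given in the labels. The labels name no agent that stresses the ER, and whether the cells were free of ER stress was not tested. Each difference is the Cry DKO mean less the WT mean of log2 values over 4 lines per genotype, given with its SE, while groups are given with their SD. The p-values come from limma and were adjusted over all 9511 genes by the Benjamini-Hochberg method. A gene is said to rise or fall where its adjusted p was under 0.05.

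The arrays had nearly equal medians, 6.78 to 6.79. Pairs of arrays correlated at 0.973 to 0.977 within a genotype and at 0.967 to 0.975 across them. Cry1 differed by -0.50 (SE 0.21, limma adjusted p = 0.168) and Cry2 by -0.34 (SE 0.13, limma adjusted p = 0.132). The sources used here do not say whether their probes lie in the deleted parts, so these values are no check of the genotypes. Of 10 fibroblast markers 7 were above the floor, with collagen genes among the brightest signals, while Pdgfra, Lum and Dcn lay below it. All 7 were lower in Cry DKO lines, with a median difference of -0.07, and none passed. Of 18 macrophage markers, such as Csf1r, Lyz2 and Cd68, 11 rose and none fell, with a median difference of 0.79. Their mean level was 8.92 to 9.87 in Cry DKO lines and 8.25 to 8.88 in WT lines, and none lay below the floor. In bulk RNA, more cells of a type and more RNA per cell cannot be told apart. The difference between 3' and 5' control probe sets of beta-actin, a sign of RNA quality, was 0.16 to 0.21 in Cry DKO lines and 0.18 to 0.31 in WT lines.

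The branches are known to be switched on through different promoter elements. RefSeq promoter windows of GRCm38.p6, from 250 bases before to 50 after the annotated start, were held for 32 of the 36 genes. The ER stress response element (ERSE), which is bound by ATF6 together with NF-Y, was searched as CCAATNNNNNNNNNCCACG on both strands. It was found in 7 of 14 chaperone branch genes (50%), in 0 of 15 ATF4 branch genes and in 0.137% of all 27025 genes with a promoter. These are the 7 stretches, each 5′ to 3′ on the strand of the gene, with the ERSE in capitals. Where the capitals start with CGTGG, the element lies on the other strand. Hsp90b1 held 2 matches, of which the one nearer the start is shown.
Hspa5, chr2:34772010-34772058, plus strand: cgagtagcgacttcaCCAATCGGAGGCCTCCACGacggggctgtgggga
Hsp90b1, chr10:86705518-86705566, minus strand: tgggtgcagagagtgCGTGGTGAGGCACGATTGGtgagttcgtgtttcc
Dnajc3, chr14:118937812-118937860, plus strand: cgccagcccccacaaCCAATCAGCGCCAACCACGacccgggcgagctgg
Creld2, chr15:88819505-88819553, plus strand: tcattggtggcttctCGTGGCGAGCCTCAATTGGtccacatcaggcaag
Pdia6, chr12:17266476-17266524, plus strand: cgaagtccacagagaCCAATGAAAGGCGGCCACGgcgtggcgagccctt
Calr, chr8:84847060-84847108, minus strand: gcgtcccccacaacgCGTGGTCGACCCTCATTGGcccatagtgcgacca
Canx, chr11:50325785-50325833, minus strand: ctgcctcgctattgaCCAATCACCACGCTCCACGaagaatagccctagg

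The C/EBP-ATF element, to which ATF4 binds with C/EBP partners, was searched as TGATGNAA on both strands. It was found in 5 of 15 ATF4 branch genes (33.3%), which were Asns, Chac1, Atf3, Trib3 and Vldlr, in 1 of 14 chaperone branch genes, Herpud1, and in 4.51% of all genes with a promoter. The lines that follow hold 4 of these stretches, with the element in capitals (TTGCATCA where it lies on the other strand), and then the 120 bases before the start of Psat1 (the first of its 2 windows) and of Shmt2, the 2 genes that differed between genotypes.
Asns, chr6:7693210-7693252, minus strand: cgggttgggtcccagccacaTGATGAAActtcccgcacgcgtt
Chac1, chr2:119351029-119351076, plus strand: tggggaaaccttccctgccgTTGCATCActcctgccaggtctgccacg
Atf3, chr1:191183416-191183463, minus strand: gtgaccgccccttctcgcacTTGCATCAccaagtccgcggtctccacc
Herpud1, chr8:94386297-94386344, plus strand: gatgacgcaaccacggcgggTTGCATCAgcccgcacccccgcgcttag
Psat1, chr19:15925060-15925179, minus strand: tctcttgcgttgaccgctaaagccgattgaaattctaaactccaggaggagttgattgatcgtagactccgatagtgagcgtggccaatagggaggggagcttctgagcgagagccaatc
Shmt2, chr10:127522445-127522564, minus strand: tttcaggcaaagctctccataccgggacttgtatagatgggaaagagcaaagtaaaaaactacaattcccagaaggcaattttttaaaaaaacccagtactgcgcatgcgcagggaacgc
Neither Psat1 nor Shmt2 held a match to any of the motifs searched in its windows, which says only that these letters are not there. The E-box CACGTG, the element of CLOCK and ARNTL, was in 2 of the 32 genes, Dnajb9 and Calr (6.25%), and in 8.09% of all genes with a promoter. The core of the XBP1 element, TGACGTG, was in Hspa5 alone (3.12%) and in 2.22% of all genes with a promoter. No matches to different motifs overlapped in these genes.

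As among all tested genes, most of these genes did not differ between Cry DKO and WT fibroblasts beyond the threshold. Of the 36 genes 2 rose, Shmt2 and Psat1, and none fell, which is 5.56% of the genes against 9.18% of all tested genes (4.95% rose and 4.23% fell). Both are enzymes that make or use serine, and both belong to the ATF4 and amino acid branch, where 2 of 16 genes rose (12.5%); in the chaperone branch 0 of 16 and among the sensors 0 of 4 passed, with 3 and 0 at an unadjusted p under 0.05. At that unadjusted threshold stood 8 of the 36 genes and 25.3% of all tested genes. Counts this small allow no comparison with the shares of all tested genes or between the branches. The median difference was 0.027 over the 36 genes, 0.0099 in the chaperone branch, 0.056 in the ATF4 branch and -0.0059 over all tested genes. The median size, without regard to sign, was 0.11 for the 36 genes and 0.11 for all tested genes.

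**Figure D1:**
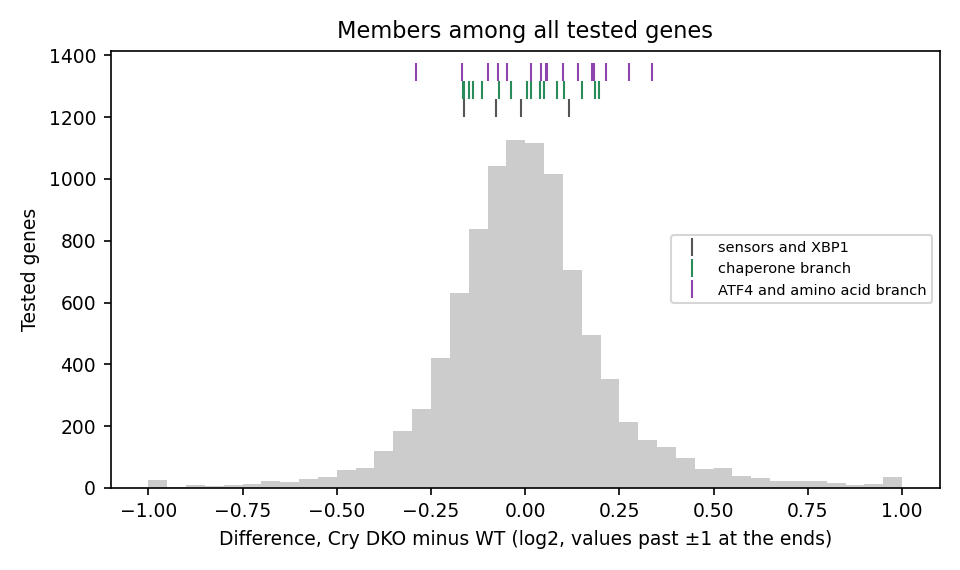
Histogram of the difference between Cry DKO and WT lines (x axis, log2; values past 1 in either direction are drawn at the ends) for 9511 tested genes (y axis, number of genes), with the 36 genes as coloured ticks above it by branch. The ticks run from -0.29 (Ppp1r15a) to 0.34 (Shmt2), near the middle of the histogram.

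The intervals were narrow. The 95% interval of the difference lay within 1.5-fold up or down for 36 of 36 genes, each interval taken alone, and the bound farthest from 0 was 0.51 on the log2 scale, or 1.42-fold, for Atf5. For 18 of the 36 genes the difference was no larger than 1 SD between lines of a genotype. The groups of lines did not overlap for 3 of the 36, Shmt2, Psat1 and Sdf2l1, where they did not for 16.8% of all tested genes.

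**Figure D2:**
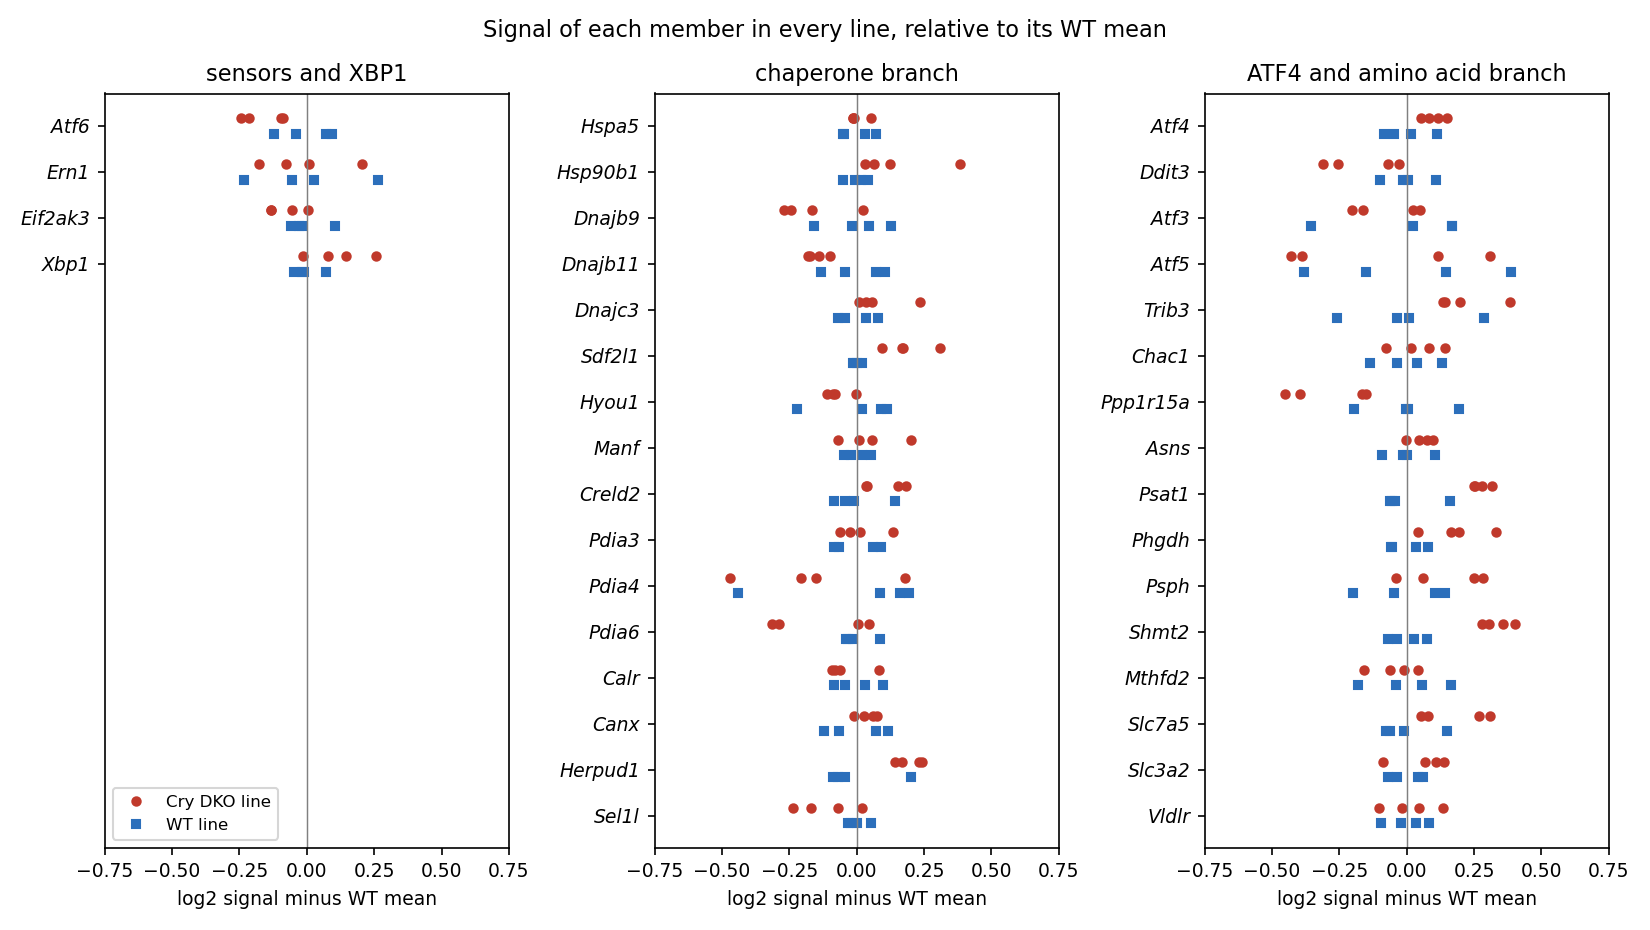
Log2 signal of each gene in every line, minus the mean of its 4 WT lines (x axis), with 1 row per gene (y axis) and 1 panel per group of genes; red circles are Cry DKO lines and blue squares WT lines. The circles stand clear of the squares in Shmt2, Psat1 and Sdf2l1, and Atf5 and Pdia4 have the widest spread in both genotypes.

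None of the 3 sensors passed. Atf6, the gene of the cut transcription factor, had 8.44, 8.43, 8.31 and 8.28 in Cry DKO lines 1 to 4, against 8.62, 8.41, 8.49 and 8.60 in WT lines 1 to 4, which is -0.16 (SE 0.08, limma adjusted p = 0.208). The Cry DKO lines lay lower except that 2 of them exceeded WT line 2. Ern1 differed by -0.010 (SE 0.12, limma adjusted p = 0.971) and Eif2ak3 by -0.079 (SE 0.07, limma adjusted p = 0.511).

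Xbp1, the transcription factor downstream of IRE1, had 11.88, 11.79, 11.95 and 12.06 in Cry DKO lines, against 11.80, 11.88, 11.79 and 11.76 in WT lines. Cry DKO lines 3 and 4 lay above all WT lines, line 1 was level with the highest of them and line 2 lay among them. Xbp1 differed by 0.12 (SE 0.06, limma adjusted p = 0.249). Its 3 other probe sets gave 0.10, 0.17 and 0.14, and none passed when tested on their own. The sources used here do not say whether any of them tells spliced from unspliced Xbp1 mRNA.

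Among the chaperones, Hspa5, which encodes BiP, the main Hsp70 of the ER and the usual gauge of ER stress, had 13.07, 13.07, 13.07 and 13.13 in Cry DKO lines, against 13.03, 13.11, 13.03 and 13.15 in WT lines. The Cry DKO lines lay within the range of the WT lines, and the difference was 0.0042 (SE 0.04, limma adjusted p = 0.966, 95% interval -0.088 to 0.097). This probe set is among the brightest of the table, with 0.744% of probe sets brighter, and whether it was near saturation is not known from these values. The dimmer probe sets of Hspa5, at means of 12.4 and 8.59, gave 0.14 (SE 0.08) and 0.24 (SE 0.13), with limma adjusted p-values of 0.291 and 0.29 when each probe set was tested.

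Hsp90b1, the Hsp90 of the ER, had 12.54, 12.45, 12.49 and 12.81 in Cry DKO lines, against 12.46, 12.44, 12.42 and 12.37 in WT lines. Cry DKO line 4 stood above all others, and the difference was 0.15 (SE 0.07, limma adjusted p = 0.211). Its other probe set gave -0.048 (SE 0.04), of the opposite sign.

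Sdf2l1, a partner of BiP and its J proteins, was the gene of this branch whose lines did not overlap. It had 7.99, 8.07, 8.20 and 8.06 in Cry DKO lines, against 7.89, 7.90, 7.92 and 7.88 in WT lines. The difference of 0.19 (SE 0.07) did not pass (limma adjusted p = 0.142).

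The J proteins, cochaperones of BiP, pointed both ways, with Dnajb9 at -0.16 (SE 0.08, limma adjusted p = 0.239), Dnajb11 at -0.15 (SE 0.06, limma adjusted p = 0.184) and Dnajc3 at 0.083 (SE 0.07, limma adjusted p = 0.469). Hyou1, which exchanges nucleotides on BiP, differed by -0.07, and Manf and Creld2, small secretory stress proteins, by 0.049 and 0.10, and none of the 3 passed.

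The folding enzymes did not pass either. The protein disulfide isomerases form and reshuffle disulfide bonds. They differed by 0.015 for Pdia3 (SE 0.06), -0.16 for Pdia4 (SE 0.16) and -0.14 for Pdia6 (SE 0.08). A dim second probe set of Pdia3, at a mean of 6.22, gave -0.41 (SE 0.15, limma adjusted p = 0.127 with each probe set tested). Pdia4 varied most between lines of this branch, with 8.53, 8.21, 8.47 and 8.86 in Cry DKO lines, against 8.76, 8.84, 8.87 and 8.24 in WT lines. Its lowest values were in Cry DKO line 2 and WT line 4, and the groups overlapped over nearly their whole range. The lectin chaperones Calr and Canx, which hold newly made glycoproteins, differed by -0.038 (SE 0.05) and 0.038 (SE 0.06). All 7 genes with an ERSE (Hspa5, Hsp90b1, Dnajc3, Creld2, Pdia6, Calr and Canx) lay between -0.14 and 0.15 in the probe sets read. Of these 7 genes 0 passed, where 9.18% of all tested genes did, and so few genes allow no comparison with that share.

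For degradation from the ER, Herpud1, a stress-induced part of the ubiquitin ligase complex at the ER membrane, had 9.98, 9.96, 9.88 and 9.90 in Cry DKO lines, against 9.66, 9.94, 9.69 and 9.65 in WT lines. Only WT line 2 reached the Cry DKO range, and the difference of 0.20 (SE 0.07) did not pass (limma adjusted p = 0.114). It passed without WT line 2, at 0.26 (limma adjusted p = 0.0356), and its other probe set passed at 0.25 when each probe set was tested (SE 0.07, limma adjusted p = 0.0431). Sel1l, the adaptor of the same ligase complex, differed by -0.11 (SE 0.06, limma adjusted p = 0.301), and all 5 of its probe sets lay below 0.

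**Figure D3:**
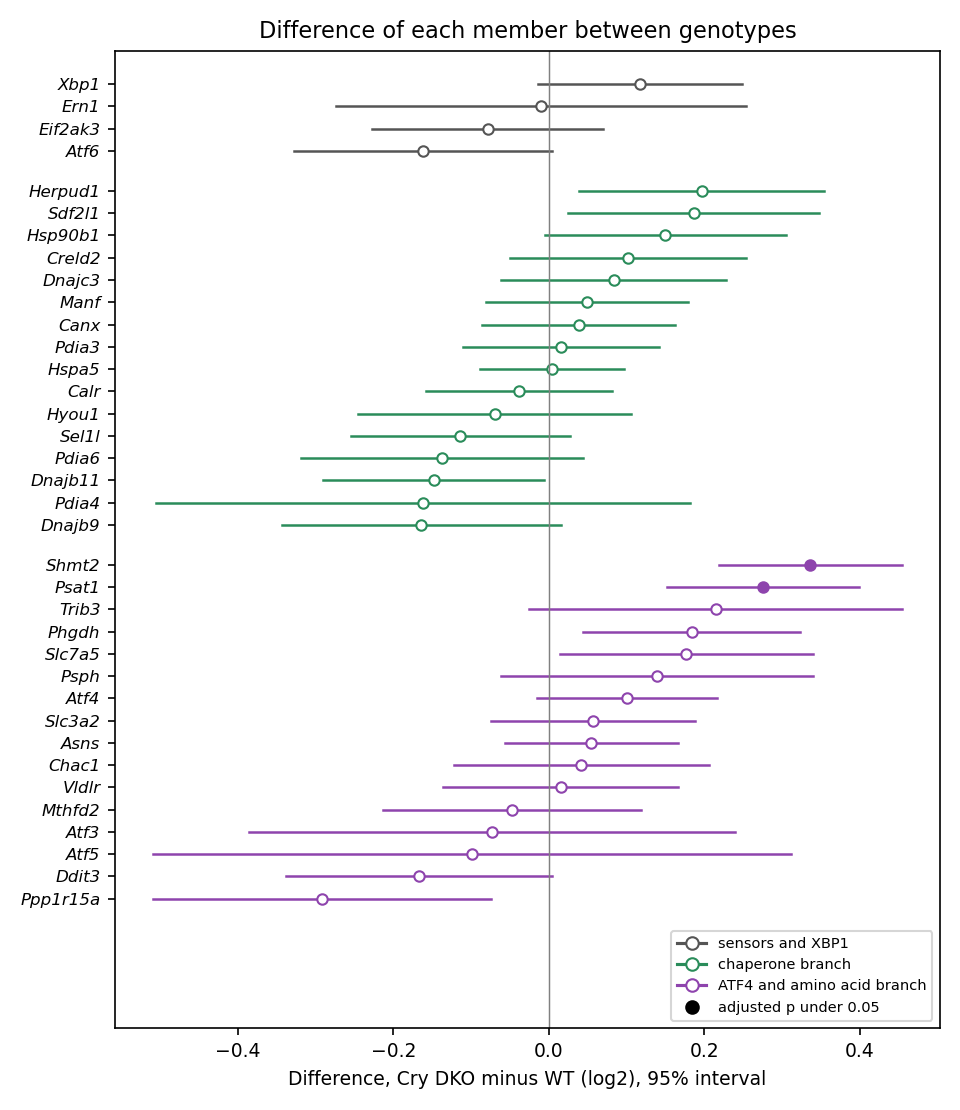
Difference between Cry DKO and WT lines (x axis, log2) for each of the 36 genes (y axis, sorted within 3 groups), with bars for the 95% interval from limma, n = 4 lines per genotype; filled points passed an adjusted p of 0.05. The filled points are Shmt2 at 0.34 and Psat1 at 0.28, and no other point is filled.

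The transcription factors of the ATF4 branch did not pass. Atf4 itself had 11.62, 11.72, 11.69 and 11.65 in Cry DKO lines, against 11.49, 11.68, 11.52 and 11.59 in WT lines. WT line 2 alone reached the Cry DKO range, and the difference was 0.10 (SE 0.05, limma adjusted p = 0.263). Since ATF4 is controlled largely in translation, its mRNA level is not its activity.

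Ddit3, which encodes the stress factor CHOP, had 9.31, 9.59, 9.36 and 9.55 in Cry DKO lines, against 9.52, 9.72, 9.62 and 9.61 in WT lines. It lay on the lower side in Cry DKO lines, at -0.17 (SE 0.08, limma adjusted p = 0.209). Atf3, a stress-induced repressor, differed by -0.073 (SE 0.14), and Atf5, a relative of ATF4, by -0.099 (SE 0.19). Atf5 had 11.05, 10.86, 10.32 and 10.36 in Cry DKO lines, against 10.89, 11.13, 10.37 and 10.59 in WT lines. Lines 1 and 2 of either genotype were thus higher than lines 3 and 4.

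Ppp1r15a, which encodes GADD34, the subunit that directs a phosphatase to eIF2 alpha and restores translation, was the lowest of the 36. It had 8.79, 8.55, 8.80 and 8.50 in Cry DKO lines, against 9.15, 8.95, 8.96 and 8.76 in WT lines. The groups overlapped only through WT line 4, and the difference of -0.29 (SE 0.10) did not pass (limma adjusted p = 0.0924). Trib3, a pseudokinase that restrains ATF4, differed by 0.21 (SE 0.11, limma adjusted p = 0.249), and Chac1, which degrades glutathione, by 0.042 (SE 0.07, limma adjusted p = 0.77).

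The enzymes that make serine and pass on its carbon held both genes that rose. Psat1, phosphoserine aminotransferase, the second step of serine synthesis, had 11.77, 11.83, 11.77 and 11.80 in Cry DKO lines, against 11.47, 11.67, 11.46 and 11.46 in WT lines. All Cry DKO lines were above all WT lines, with WT line 2 the nearest. Psat1 averaged 11.79 ± 0.03 in Cry DKO lines and 11.52 ± 0.11 in WT lines (SD, n = 4 each), so that it rose by 0.28 (SE 0.06, limma adjusted p = 0.0153), or 1.21-fold. Its other probe set gave 0.29 (SE 0.12) and missed the threshold in the fit of all probe sets (limma adjusted p = 0.181).

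Shmt2, the mitochondrial enzyme that splits serine into glycine and a one-carbon unit, had 10.73, 10.81, 10.75 and 10.85 in Cry DKO lines, against 10.52, 10.48, 10.41 and 10.38 in WT lines. The gap between the groups was wider than the range within either. Shmt2 averaged 10.78 ± 0.05 in Cry DKO lines and 10.45 ± 0.06 in WT lines (SD, n = 4 each), so that it rose by 0.34 (SE 0.05, limma adjusted p = 0.00452), or 1.26-fold. The probe set read is of the kind named x, whose probes can match other transcripts. A second one without that suffix rose by 0.33 (SE 0.06, limma adjusted p = 0.0134 with each probe set tested), while 2 dim ones, at means of 7.06 and 6.66, gave 0.013 (SE 0.17) and -0.47 (SE 0.28). With the mean of all its probe sets in place of the brightest, Shmt2 differed by 0.053 and did not pass (limma adjusted p = 0.742).

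The other amino acid and one-carbon enzymes among the 36 genes did not pass. Mthfd1l, an enzyme of the one-carbon pathway of Shmt2 but outside the 36, rose and is given below. Phgdh, the first enzyme of serine synthesis, had 11.98, 11.85, 11.82 and 11.69 in Cry DKO lines, against 11.69, 11.73, 11.60 and 11.59 in WT lines, where Cry DKO line 4 fell within the WT range. Its difference was 0.18 (SE 0.06, limma adjusted p = 0.0973), and without Cry DKO line 4 it passed at 0.23 (limma adjusted p = 0.0401). The 3 other probe sets of Phgdh gave smaller differences, 0.060 (SE 0.07) in one of nearly equal signal, 0.076 (SE 0.06) and 0.11 (SE 0.06), and none passed. Psph, the last enzyme of serine synthesis, differed by 0.14 (SE 0.09, limma adjusted p = 0.38). Mthfd2, which carries the one-carbon unit onward in mitochondria, had 10.75, 10.80, 10.70 and 10.60 in Cry DKO lines, against 10.82, 10.92, 10.72 and 10.58 in WT lines, which is -0.048 (SE 0.08, limma adjusted p = 0.737). Asns, asparagine synthetase, is a classic ATF4 target and carries the element shown above. Asns differed by 0.055 (SE 0.05, limma adjusted p = 0.545, 95% interval -0.057 to 0.17). Its other probe set gave 0.13 (SE 0.05, limma adjusted p = 0.157 with each probe set tested).

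**Figure D4:**
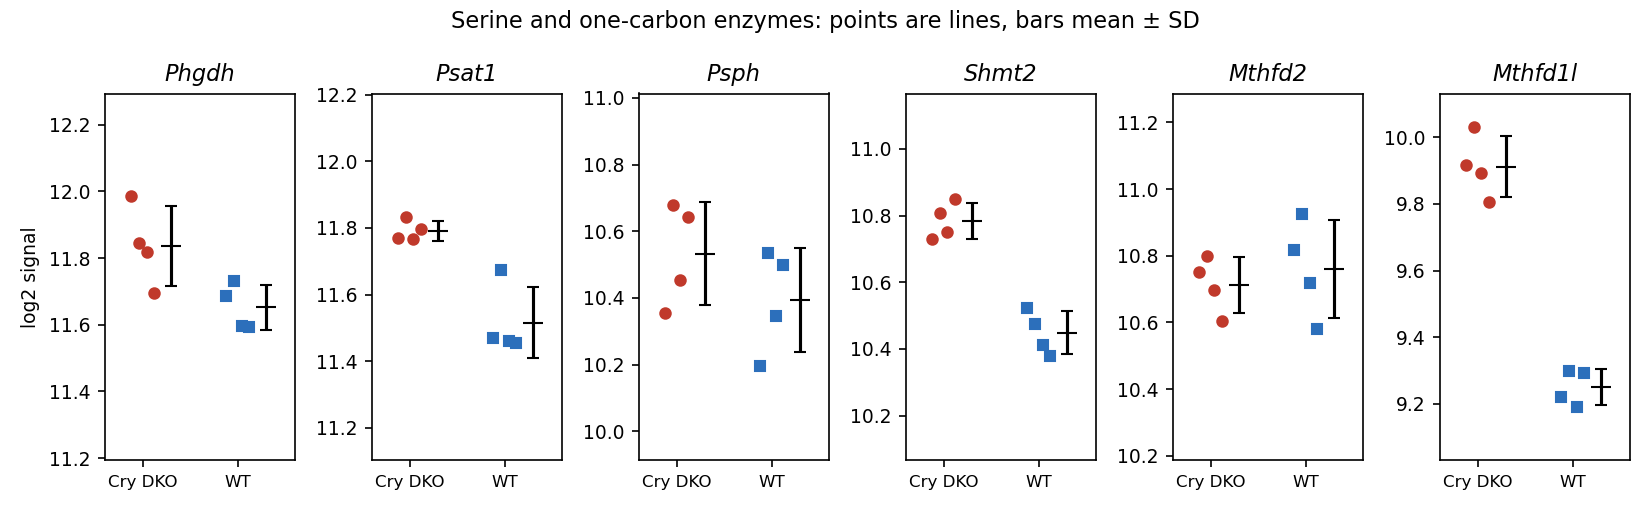
Log2 signal (y axis, each panel spanning the same width) of serine and one-carbon enzymes in Cry DKO lines (left in each panel, circles) and WT lines (right, squares); points are lines and bars are the mean and SD of 4 lines. Psat1, Shmt2 and Mthfd1l are apart between the genotypes, with Mthfd1l the widest apart at 0.66, while Mthfd2 and Psph overlap.

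For uptake, Slc7a5, the exchanger of large neutral amino acids, had 11.11, 11.07, 10.86 and 10.89 in Cry DKO lines, against 10.80, 10.96, 10.75 and 10.73 in WT lines. WT line 2 lay among the Cry DKO lines and the other WT lines below them. Slc7a5 differed by 0.18 (SE 0.07, limma adjusted p = 0.166), and its partner Slc3a2 by 0.057 (SE 0.06, limma adjusted p = 0.595). Vldlr, a lipoprotein receptor that PERK and ATF4 can raise, differed by 0.015 (SE 0.07, limma adjusted p = 0.922). That probe set is of the kind named x. Its other probe sets above the floor gave -0.14 (SE 0.10) and -0.18 (SE 0.18), and neither passed. Those below the floor lay below 0 as well.

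Set side by side as branches, the 16 chaperone genes averaged 10.65, 10.62, 10.67 and 10.74 in Cry DKO lines, against 10.67, 10.72, 10.64 and 10.64 in WT lines. The 16 ATF4 branch genes averaged 10.28, 10.29, 10.20 and 10.23 in Cry DKO lines, against 10.20, 10.32, 10.13 and 10.12 in WT lines. Either branch overlapped between the genotypes. The ATF4 branch mean minus the chaperone branch mean was -0.42 ± 0.08 in Cry DKO lines and -0.48 ± 0.05 in WT lines (SD, n = 4 each), a difference of 0.058, which is under the SD within Cry DKO lines and slightly over that within WT lines. The 6 amino acid and one-carbon enzymes alone averaged 11.26, 11.31, 11.23 and 11.24 in Cry DKO lines, against 11.09, 11.21, 11.06 and 11.04 in WT lines, without overlap. These enzymes include Psat1 and Shmt2, which rose, so the gap partly restates those calls. Asns, Phgdh, Psph and Mthfd2 each overlapped between the genotypes. The means of the other groups of genes by role overlapped as well. These means were given no test, since the genes were chosen with results of these data known.

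**Figure D5:**
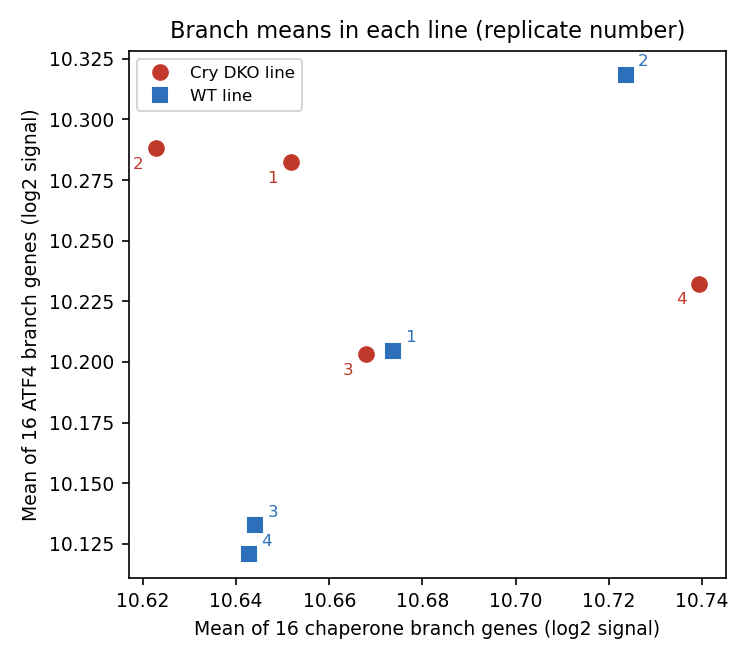
Mean log2 signal of the 16 chaperone genes (x axis) against that of the 16 ATF4 branch genes (y axis) in each line, numbered by replicate; red circles are Cry DKO lines and blue squares WT lines. The genotypes intermingle, and WT line 2 has the highest ATF4 branch mean of all 8 lines, at 10.32.

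In the ATF4 branch the WT lines differed among themselves. WT line 2 had the highest WT value in 12 of its 16 genes and the lowest in 0, and WT line 4 had the lowest in 9 and the highest in 0. The WT range of the branch mean, 10.12 to 10.32, was wider than the Cry DKO range, 10.20 to 10.29. In the chaperone branch no WT line was highest in more than 6 of the 16 genes, and among Cry DKO lines line 4 was highest in 7.

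Other genes of these pathways were read from lists of 99 genes, of which 90 were tested: 3 rose and 5 fell, together 8.89% against 9.18% of all tested genes. These lists too were drawn up with earlier results known. Of 31 tested ATF4 targets outside the 36 genes, 2 rose and none fell (6.45%). Mthfd1l, the mitochondrial enzyme that releases formate from the one-carbon pathway of Shmt2 and Mthfd2, had 9.92, 10.03, 9.89 and 9.81 in Cry DKO lines, against 9.22, 9.30, 9.19 and 9.29 in WT lines. Every Cry DKO line lay above every WT line by more than the range within either genotype, and Mthfd1l rose by 0.66 (SE 0.06, limma adjusted p = 0.000311). Slc1a5, a glutamine transporter, rose by 0.32 (SE 0.09, limma adjusted p = 0.0441). Of 8 fits that each left out 1 array, Slc1a5 passed only in that without WT line 2. The 31 genes had a median difference of 0.017.

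Of 10 ER stress regulators outside the 36 genes, 2 fell (20%), where 4.23% of all tested genes fell. The list is small, so its share rests on these 2 genes. Of its 10 differences 9 lay below 0 and 1 above, and 5 genes had an unadjusted p under 0.05. Both are transcription factors of the ER membrane related to ATF6. Creb3l1, known for driving collagen secretion in bone, had 9.45, 9.50, 9.40 and 9.42 in Cry DKO lines, against 9.95, 10.09, 9.90 and 9.83 in WT lines. All Cry DKO lines lay below all WT lines, and Creb3l1 fell by 0.50 (SE 0.07, limma adjusted p = 0.00208). Creb3 fell by 0.25 (SE 0.06, limma adjusted p = 0.035).

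In the list of ER-associated degradation, also small, 2 of 11 tested genes fell (18.2%), where 4.23% of all tested genes fell. Of its 11 differences 9 lay below 0 and 2 above. Herpud2, a relative of Herpud1, fell by 0.31 (SE 0.07, limma adjusted p = 0.0195). Erlec1, a lectin that reads glycans of misfolded proteins, fell by 0.25 (SE 0.07, limma adjusted p = 0.0477). Of 13 other ER folding genes Fkbp14, a prolyl isomerase that acts on collagen, fell by 0.27 (SE 0.07, limma adjusted p = 0.0447). Of 14 translocation genes Spcs3, a subunit of the signal peptidase, rose by 0.26 (SE 0.06, limma adjusted p = 0.0176). Of 11 genes for eIF2, eIF2B, eIF2 kinases and an eIF2 phosphatase subunit none passed in limma. At an unadjusted p under 0.05 stood 0 as well. Their differences lay above 0 for 10 genes and below 0 for 1. The smallest p was that of Eif2ak2, an interferon-induced eIF2 kinase, at 0.25 (SE 0.13, limma adjusted p = 0.284). Leaving out 1 array ended the calls of Erlec1 and Fkbp14 in all fits but the one without Cry DKO line 4, as it ended that of Slc1a5 in all but 1. That of Creb3 held only without Cry DKO line 3 and without WT line 2. The call of Herpud2 ended without WT line 3, and that of Spcs3 without WT line 1 or WT line 3, while Creb3l1 and Mthfd1l passed in 8 of 8.

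The calls of Psat1 and Shmt2 passed in 8 of 8 fits without 1 array, with differences of 0.26 to 0.33 and 0.31 to 0.36. Markers of macrophages also differed, as given above. With their mean as a covariate, the differences were 0.35 for Psat1 and 0.36 for Shmt2, against 0.28 and 0.34 without it. Neither passed (limma adjusted p = 0.14 for both), and over all genes 23 passed in that fit. The marker mean was higher in every Cry DKO line than in any WT line, so this fit cannot separate it from genotype. Whether macrophage content contributes to these differences was not tested.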

How the data were processed

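Affymetrix 3' arrays were hybridised with RNA extracted with Trizol from 4 Cry DKO and 4 WT lines. The deposited table of log2 values holds the authors' processed signal for 30506 probe sets. The submitters' processing notes name GCOS; how probes were summarised and arrays normalized is not stated in the sources used here, and log base 2 was inferred from the range of 0.0675 to 14.3. Arrays carry no counts, so their number limits the precision.

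Probe sets annotated to 1 gene numbered 24838, 658 had several genes and 4949 none; GEO's annotation may be old, and 24757 were matched to RefSeq. One probe set per gene, the brightest, was kept if its mean reached the 40th percentile. The fit was limma 3.58.1 in R 4.3.3 (lmFit, eBayes with an intensity trend, two-sided). It was also run on simulated data with independent noise for each gene, which lack effects shared by genes within a line. Named are all 36 genes and, of other pathway lists, each gene that passed, or the one of smallest p if none did. The 36 genes and the lists were chosen with earlier results of these data known. Of the 36, 7 were read from probe sets whose suffix marks possible matches to several transcripts. Alternatives changed the filter, scaling, probe set choice, empirical Bayes step, array weights, covariates, replicate block and arrays used. Promoter sequences came from RefSeq (GRCm38.p6).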

Additional observations from a re-analysis of the deposited data

Results flagged for a closer look

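Of 78 groups of 4 lines checked, 5 held 1 line that stood apart from the other 3, where chance gives about 1 in 20. Hspa5 was 13.13 in Cry DKO line 4, against 13.07 in the other Cry DKO lines, a gap smaller than 0.1. Calr was 12.88 in Cry DKO line 2, against 12.71 to 12.74 in the other Cry DKO lines. Pdia4 was 8.24 in WT line 4, against 8.76 to 8.87 in the other WT lines. Herpud1 was 9.94 in WT line 2, against 9.65 to 9.69 in the other WT lines. Psat1 was 11.67 in WT line 2, against 11.46 to 11.47 in the other WT lines. WT line 2 was thus the high one for 2 genes, and it was also the highest WT line in 12 of the 16 ATF4 branch genes.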

How the results depend on the processing

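Over 20 alternatives, Psat1 passed in 19 and Shmt2 in 18, and 24 of the 36 genes kept the sign of their difference in every alternative; the 12 others changed it somewhere without passing. The number of the 36 that passed was 4 with the replicate number as a block, where Phgdh (limma adjusted p = 0.0478) and Ppp1r15a (limma adjusted p = 0.0313) joined, 0 with the macrophage mean as a covariate, and 2 to 3 without 1 array. Of the other pathway genes, 8 passed in the fit reported and 8 with the block, where the difference of Slc1a5 no longer passed (limma adjusted p = 0.0515) and that of Os9 did (limma adjusted p = 0.0469); 5 did with no filter or with each probe set tested, 4 with no intensity trend or with the Y-linked mean as a covariate, and 1 with the macrophage mean as a covariate. Without 1 array, 2 to 7 of them passed, the fewest without WT line 3. The chaperone branch median was -0.013 to 0.023 and the ATF4 branch median 0.045 to 0.087 over those fits. Nothing in the labels says that same-numbered lines are paired. Their deviations correlated at 0.36, 0.12, 0.23 and -0.011; Cry DKO lines 1 to 3 correlated best with their own number and line 4 with WT line 3. This hint from the data covers 3 of 4 numbers, so the lines were treated as unpaired and the block result is given here only. The cause of these changes was not tested. With 4 lines per genotype, these genes' intervals reach no further than 1.42-fold, and smaller differences may be missed. Dim probe sets have larger errors, and the brightest may be near saturation.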

Other observations

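Of the 36 genes, 20 had further probe sets above the floor, 37 in all, of which 24 had a difference of the same sign as the probe set read and 13 the opposite sign. Trib3 was 0.21 in the probe set read and -0.09 in another of nearly equal signal, and neither passed. Dnajc3 was 0.083 in the probe set read and -0.17 in another (limma adjusted p = 0.135 with each probe set tested).

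Eif2s3y, the Y-linked gene for a subunit of eIF2, is not among the 36 genes. It was 0.61, 9.08, 9.04 and 2.97 in Cry DKO lines 1 to 4, against 2.83, 9.18, 9.42 and 9.13 in WT lines 1 to 4. The low values were in Cry DKO lines 1 and 4 and in WT line 1. With its value as a covariate Psat1 and Shmt2 both passed. Its X-linked counterpart Eif2s3x did not differ between genotypes beyond the threshold (limma adjusted p = 0.419). Eif2s3x was 11.92, 11.36, 11.34 and 11.87 in Cry DKO lines 1 to 4, against 11.91, 11.19, 11.22 and 11.16 in WT lines 1 to 4. Its high values were thus in the lines where Eif2s3y was low, Cry DKO lines 1 and 4 and WT line 1. Whether the lines differ in sex was not tested.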
